A study of Mus musculus with 6 samples.

Results

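Stromal cells are the fibroblast-like cells that lay down collagen and support blood formation in marrow. A set of 38 transcripts known from them was followed in cultures of mouse bone marrow derived macrophages. Which cells of the cultures made these transcripts was not tested. The transcripts were chosen by gene symbol, as a list of matrix, surface and contractile genes known from fibroblasts, and all 38 were among the 52459 rows of the count table. The cultures came from C57BL/6 marrow, were grown with the cytokine GM-CSF in a standard medium and were given DMSO, the solvent control, or RIP1i overnight from day 7. RIP1i is named in the labels without its compound or dose, and the series title concerns RIP1 kinase in macrophages. Each group held 3 libraries of total RNA, and the comparison asks how the transcriptome differs under RIP1i. The labels do not tell if libraries of one treatment came from different cultures or mice, so each p-value refers to the variation among these 6 libraries, and that variation may be technical.

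Fibroblasts secrete fibrillar collagens, which assemble with proteoglycans and glycoproteins into fibres, and they build basement membrane with collagen IV, nidogen and laminin. Collagen chains are modified and folded in the endoplasmic reticulum and are cross-linked outside the cell by lysyl oxidases. Activated fibroblasts also make the contractile proteins of smooth muscle. Macrophages arise from blood-forming cells and are not known as a main source of fibrillar collagen. In RNA from a whole culture, fewer cells of a type and less RNA per cell cannot be told apart.

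Library totals ran from 40264902 to 44862310 counts. The labelled cell type was checked on its markers. All 15 macrophage genes listed were measured in every library, with Lyz2, the lysozyme gene, at 30383 to 41003 FPKM and Csf1r, the receptor for M-CSF, at 263 to 319 FPKM (FPKM is a count scaled to gene length and library depth). The stromal transcripts were far less abundant. Col1a2, a chain of type I collagen, stood at 2.76 to 11.35 FPKM and Acta2, smooth muscle actin, at 7.07 to 20.85 FPKM. No gene of the 14857 tested differed between the groups at an adjusted p under 0.05 with edgeR's quasi-likelihood test (0%), 923 (6.21%) had an unadjusted p under 0.05, limma-voom called 0 genes and DESeq2 called 1, Arhgap4, which is not a stromal transcript.

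The main feature of the stromal transcripts was a large difference between libraries of the same group, shared by most of them. In the DMSO group, replicate 2 was high and replicate 3 low, and in the RIP1i group replicate 2 was low. The level of the list in a library, taken as the mean over the 37 tested members of log2 CPM (counts scaled to library size) after centring each gene, was 0.15, 0.91 and -0.70 in DMSO replicates 1 to 3 and 0.36, -0.97 and 0.25 in RIP1i replicates 1 to 3. This range of 1.87 on the log2 scale is 3.66-fold, with 3.04-fold within DMSO and 2.51-fold within RIP1i. The group means were 0.12 ± 0.80 in DMSO and -0.12 ± 0.74 in RIP1i (SD, n = 3 each), a difference of -0.24 that was smaller than either SD. Both groups therefore overlapped widely, with DMSO replicate 3 beside RIP1i replicate 2 at the low end and the other 3 libraries (DMSO replicate 1, RIP1i replicates 1 and 3) between 0.15 and 0.36. In 27 of the 37 tested members DMSO replicate 2 was the highest and RIP1i replicate 2 the lowest library, an order that 9.17% of all tested genes had.

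**Figure D1:**
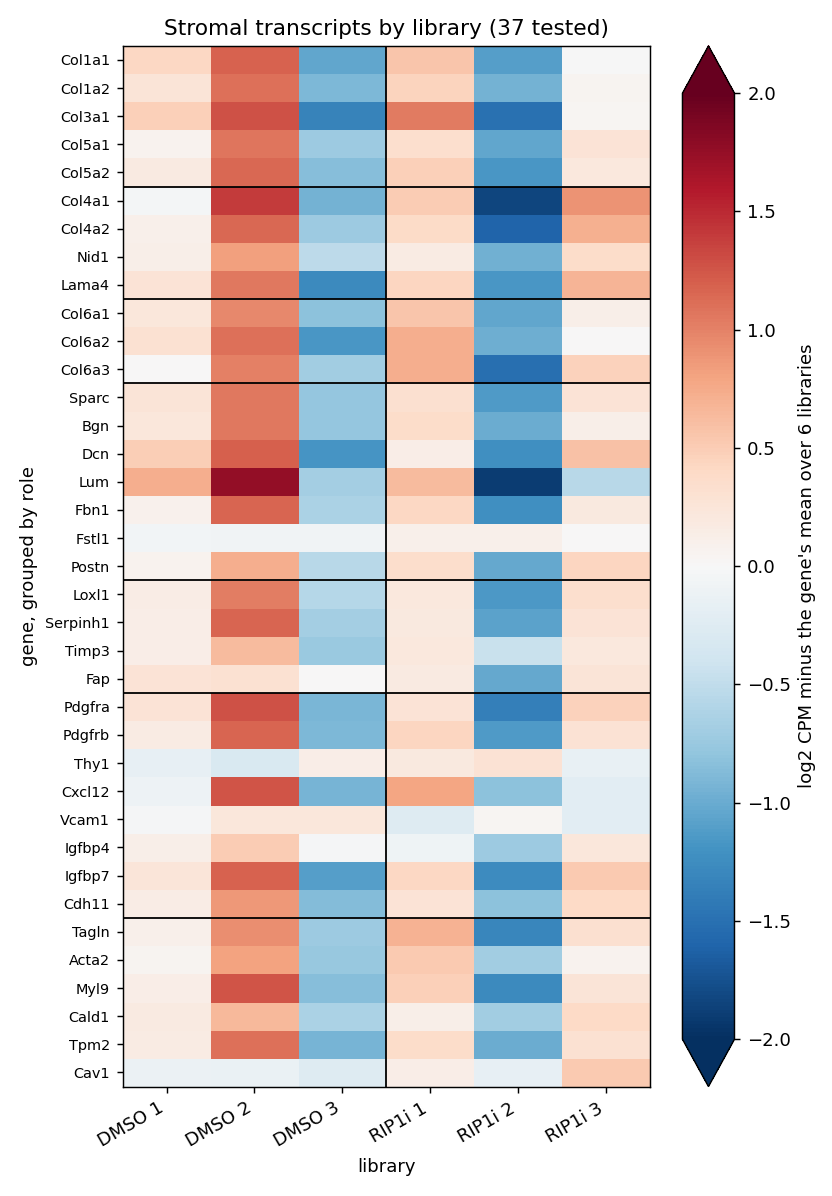
Heat map of the 37 tested stromal transcripts (rows, grouped by role) in the 6 libraries (columns); colour gives log2 CPM minus the mean of the gene over the libraries. DMSO replicate 2 is red, and DMSO replicate 3 and RIP1i replicate 2 are blue, in nearly every row; Fstl1, Thy1, Vcam1 and Cav1 do not follow.

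Reads of the 10 collagen chains in the list show the same in counts. As a share of all reads they stood at 209 CPM in DMSO replicate 1 (Wilson 95% interval 204 to 213), 386 in replicate 2 (380 to 392) and 92.4 in replicate 3 (89.6 to 95.2). In RIP1i they stood at 252 CPM in replicate 1 (247 to 257), 80.6 in replicate 2 (77.9 to 83.4) and 195 in replicate 3 (191 to 199). No 2 of these 6 intervals overlapped, so the libraries differed by more than counting error, which is all that the intervals cover.

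Promoter sequences are given for 3 members that varied together across libraries, 2 fibrillar collagens and a contractile gene, to show the letters upstream of their starts. Each is the 250 bases before a RefSeq start on the plus strand of build GRCm38.p6, written 5′ to 3′. GENCODE, the annotation used here for gene coordinates, starts Col1a2 at 4504814 and Myl9 at 156775420. By that annotation the Col1a2 stretch lies within the gene, and the Myl9 stretch runs past the gene's start. Capitals mark a CCAAT match in Col1a2 (chr6:4505368-4505617), a TTATAA stretch that holds TATAA on each strand in Col3a1 (chr1:45311288-45311537), and a CArG box in Myl9 (chr2:156775214-156775463).
Col1a2: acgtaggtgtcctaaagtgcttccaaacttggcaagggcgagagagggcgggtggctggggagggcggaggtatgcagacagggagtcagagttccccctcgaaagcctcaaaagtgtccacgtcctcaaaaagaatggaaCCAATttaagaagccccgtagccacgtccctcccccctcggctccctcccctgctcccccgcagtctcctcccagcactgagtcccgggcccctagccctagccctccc
Col3a1: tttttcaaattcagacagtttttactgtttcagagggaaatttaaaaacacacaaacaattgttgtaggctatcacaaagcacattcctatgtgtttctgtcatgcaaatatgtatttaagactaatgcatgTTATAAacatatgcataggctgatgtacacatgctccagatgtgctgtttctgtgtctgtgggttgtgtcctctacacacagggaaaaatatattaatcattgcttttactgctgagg
Myl9: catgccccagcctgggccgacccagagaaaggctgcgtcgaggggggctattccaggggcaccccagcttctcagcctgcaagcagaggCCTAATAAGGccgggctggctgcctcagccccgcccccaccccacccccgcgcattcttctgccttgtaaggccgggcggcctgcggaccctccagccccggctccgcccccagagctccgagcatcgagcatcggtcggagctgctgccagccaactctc

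These motifs were searched on both strands in windows of 300 bases, 250 before and 50 after a start, of which RefSeq gave 29 for 25 of the members. CCAAT was found in 6 of the 29 windows, against 37.4% of all 32851 windows, and TATAA in 9, against 24.9%. The CArG box, the serum response element of contractile genes, was found in 1 window, that of Myl9, against 1.63% of all windows. The matches describe these letters only.

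Fibrillar collagens form the strength-giving fibres of connective tissue. Col1a1 (chromosome 11, 94936224 to 94953042, plus strand), the main chain of type I collagen, stood at 29.1, 49.9 and 10.7 CPM in DMSO replicates 1 to 3 and at 32.1, 10.2 and 21.9 CPM in RIP1i replicates 1 to 3. Replicate 2 was thus the highest library in DMSO and the lowest in RIP1i, and the groups overlapped. The fitted log2 fold change was -0.48 ± 0.56 (SE), with a 95% interval from -1.78 to 0.82 and an edgeR adjusted p of 0.898. Its partner chain Col1a2 stood at 78.3, 141 and 35.2 CPM in DMSO and at 89.4, 34.2 and 68.2 CPM in RIP1i, in the same pattern. Col3a1 (chromosome 1, 45311538 to 45349706, plus strand), the collagen of extensible tissues, spread more widely, with 25.1, 43.4 and 7.16 CPM in DMSO and 36.9, 6.39 and 18.6 CPM in RIP1i. The ratio of its highest to its lowest library was 6.79. Col5a1 and Col5a2, whose chains start fibril assembly, had ratios of 4.33 and 4.94. All 5 fibrillar chains were fitted lower in RIP1i, from -0.48 to -0.29, and none passed the test.

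Within a library the chains of one collagen kept a steadier proportion than their levels. The count of Col1a2 over that of Col1a1 was 2.69, 2.83 and 3.29 in DMSO and 2.79, 3.34 and 3.11 in RIP1i, a narrow range beside the 4.14-fold and 4.88-fold spread of the 2 genes. For Pdgfra over Pdgfrb, the receptors through which fibroblasts and pericytes sense platelet-derived growth factor, the ratio ran from 1.16 to 1.52. Dcn over Col1a1 was less constant, from 0.41 to 0.83, with RIP1i replicate 3 at the top and RIP1i replicate 1 at the bottom.

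Basement membrane genes gave the widest spread of the 7 role groups over the 6 libraries, 5.51-fold against 4.92-fold for the fibrillar collagens, but not within DMSO, where these spread 3.85-fold and 4.36-fold. Col4a1 (chromosome 8, 11198423 to 11312826, minus strand) and Col4a2 (chromosome 8, 11312805 to 11449287, plus strand) encode the 2 chains of the common type IV collagen and lie head to head, with 22 bases shared at their starts. Col4a1 stood at 11.1, 30.2 and 5.94 CPM in DMSO and at 16.2, 3.21 and 21.2 CPM in RIP1i, a 9.41-fold range. In contrast with the fibrillar chains, RIP1i replicate 3 lay above RIP1i replicate 1. Col4a2 followed with 6.32, 13.2 and 3.56 CPM in DMSO and 7.71, 1.95 and 9.66 CPM in RIP1i. Nid1, the linker nidogen, and Lama4, a laminin chain, were lower, at 0.58 and 0.162 FPKM on average, and showed ratios of highest to lowest library of 3.43 and 5.01. The level of this group was 0.65 in RIP1i replicate 3 against 0.12 for the fibrillar collagens in the same library. Fitted log2 fold changes of the 4 genes lay between -0.28 and -0.12 and none passed.

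Collagen VI, a microfibril that links cells to the fibres, is made of 3 chains. Col6a1 stood at 7.29, 12.1 and 3.51 CPM in DMSO and at 9.15, 3.02 and 6.76 CPM in RIP1i. Col6a2 ranged from 1.35 CPM in DMSO replicate 3 to 6.47 CPM in DMSO replicate 2, and Col6a3 from 1.59 CPM in RIP1i replicate 2 to 9.13 CPM in DMSO replicate 2. The log2 fold changes of the 3 genes were -0.27, -0.27 and -0.10, and none passed.

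**Figure D2:**
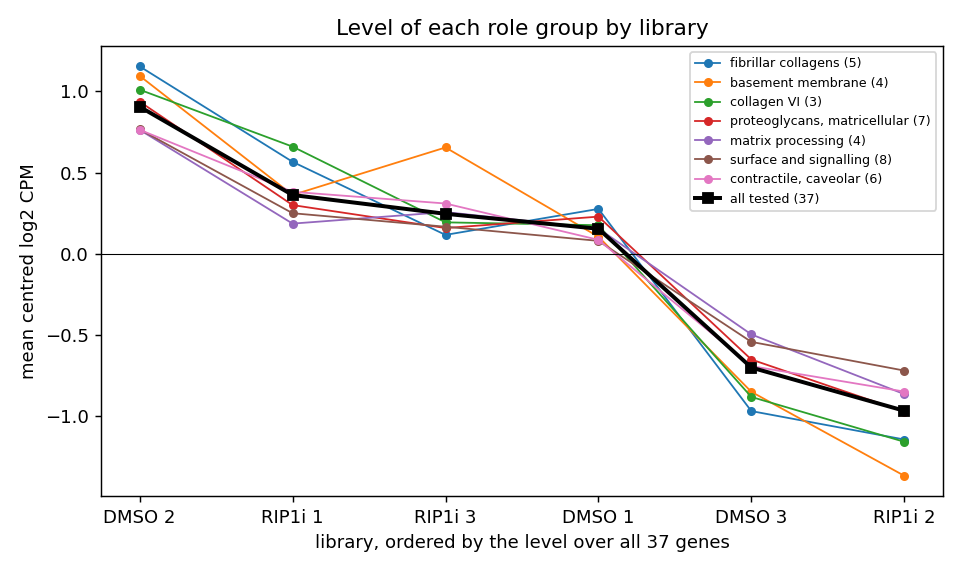
Level of each role group (mean over its tested genes of centred log2 CPM, vertical axis) in the 6 libraries, which are ordered by the level over all 37 genes (black); the number of genes is in brackets. All 7 groups are highest in DMSO replicate 2 and lowest in RIP1i replicate 2, and basement membrane genes lie above the others in RIP1i replicate 3, at 0.65.

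Among the proteoglycans and matricellular proteins, Sparc, a collagen-binding glycoprotein, stood at 21.6, 37.5 and 10.5 CPM in DMSO and at 22.4, 8.19 and 21.8 CPM in RIP1i. Its log2 fold change was -0.41 with an interval from -1.56 to 0.75. The small proteoglycans biglycan (Bgn) and decorin (Dcn) had 4.13-fold and 5.39-fold ranges. Fbn1, which encodes the microfibril protein fibrillin, had a 5.23-fold range, and Postn, periostin, 3.38-fold. Lum, lumican, was scarce, with 13, 24 and 5 counts in DMSO and 11, 2 and 5 counts in RIP1i. Its log2 fold change of -1.15 had an interval from -2.85 to 0.54. Mgp, a calcification inhibitor, had 2 to 10 counts per library and was the 1 member removed by the filter on low counts, so no difference was estimated for it.

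Fstl1, a secreted glycoprotein of the follistatin family, did not share the pattern and was the most abundant member by far. It stood at 533, 524 and 523 CPM in DMSO and at 589, 590 and 552 CPM in RIP1i, or 107 ± 0.920 and 117 ± 5.10 FPKM (SD, n = 3 each). Every RIP1i library was above every DMSO library, the only member of 37 with no overlap, where 13.5% of all tested genes had none. The log2 fold change was 0.13 with an interval from 0.03 to 0.23, an unadjusted p of 0.0172 and an adjusted p of 0.777 in edgeR's quasi-likelihood test, so it did not pass. Its highest and lowest libraries differed 1.13-fold.

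Of the 4 genes that process the matrix, 3 varied with the collagens. Serpinh1, the chaperone HSP47 that folds procollagen, stood at 17.4, 35.5 and 9.90 CPM in DMSO and at 18.1, 7.55 and 19.1 CPM in RIP1i. At 7.32 FPKM on average it was the third most abundant of the members that shared the pattern, after Acta2 and Igfbp7. Loxl1, a lysyl oxidase that acts on elastic fibres, ranged from 2.73 to 12.4 CPM. Timp3, a metalloproteinase inhibitor bound to matrix, had a narrower range, 2.58-fold. Fap, the protease named for activated fibroblasts, had only 5 to 13 counts per library.

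Growth factor receptors and other surface genes split. Pdgfra stood at 9.02, 18.1 and 3.98 CPM in DMSO and at 9.10, 2.92 and 10.3 CPM in RIP1i. Pdgfrb had 6.21, 12.4 and 2.98 CPM in DMSO and 7.44, 2.52 and 6.76 CPM in RIP1i. Both were highest in DMSO replicate 2 and lowest in RIP1i replicate 2, as was Igfbp7, a secreted binding protein, with a 5.45-fold range. The fibroblast cadherin Cdh11 had a 3.36-fold range, with DMSO replicate 3 lowest at 4.33 CPM and RIP1i replicate 2 next at 4.49 CPM. Cxcl12, the chemokine that retains blood stem cells in marrow, ranged from 1.28 CPM in DMSO replicate 3 to 5.82 CPM in DMSO replicate 2. Igfbp4, which binds insulin-like growth factors, varied less, with 53.4, 69.7 and 48.2 CPM in DMSO and 46.1, 29.6 and 57.6 CPM in RIP1i. Thy1, a surface glycoprotein of fibroblasts and of T cells, ran the other way, from 1.82 CPM in DMSO replicate 2 to 2.73 CPM in RIP1i replicate 2. Vcam1, an adhesion molecule that some macrophages also make, stayed between 4.09 and 5.68 CPM.

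The contractile genes varied together with the collagens. Acta2, known from smooth muscle and myofibroblasts, stood at 22.1, 37.2 and 12.6 CPM in DMSO and at 30.6, 13.1 and 22.3 CPM in RIP1i. Tagln, the actin-binding protein SM22, ranged from 3.09 to 14.5 CPM, Myl9, a myosin light chain, from 1.99 to 11.5 CPM and Tpm2, a tropomyosin, from 2.18 to 9.31 CPM. Cald1, caldesmon, had a narrower 2.55-fold range. Cav1, the coat protein of caveolae, did not follow, with 72.5, 72.0 and 65.6 CPM in DMSO and 85.9, 70.4 and 113 CPM in RIP1i. RIP1i replicate 3 was high for Cav1 and RIP1i replicate 2 lay within the DMSO values. Its log2 fold change was 0.36 with an interval from 0.00085 to 0.72, an unadjusted p of 0.0496 and an edgeR adjusted p of 0.777.

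**Figure D3:**
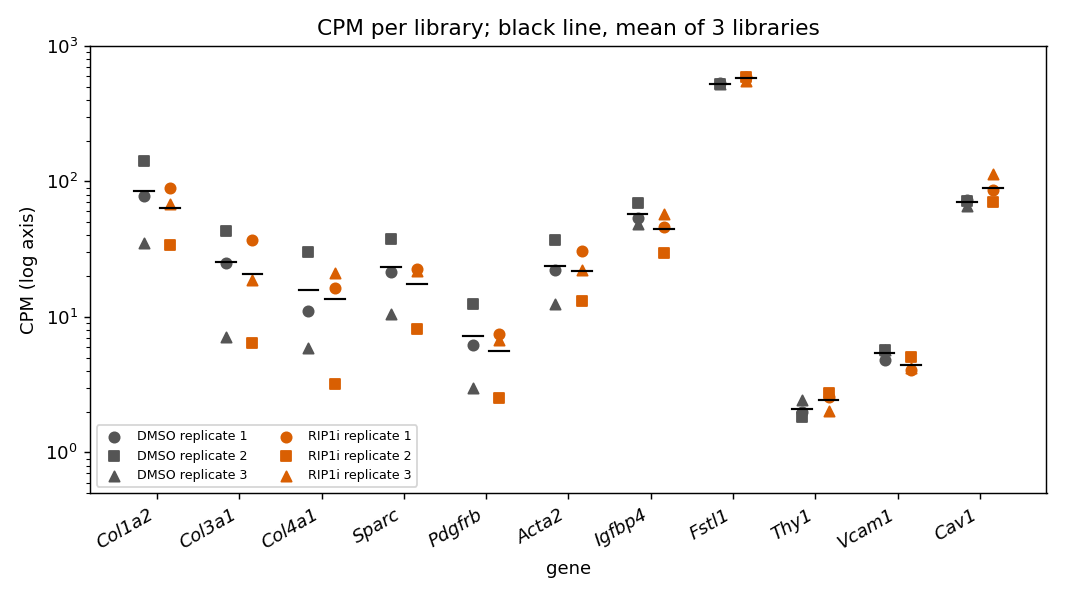
CPM (log axis) of 11 stromal transcripts in each library; grey is DMSO, orange RIP1i, the symbol gives the replicate and the black line the mean of 3 libraries. Col1a2, Col3a1, Col4a1, Sparc, Pdgfrb and Acta2 are highest in DMSO replicate 2, with DMSO replicate 3 and RIP1i replicate 2 as the 2 lowest libraries, whereas Fstl1 stays between 523 and 590 CPM and Thy1 between 1.82 and 2.73 CPM.

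Across all members the comparison of RIP1i with DMSO gave no call. Of the 37 tested, 0 had an adjusted p under 0.05 and 2, Fstl1 and Cav1, had an unadjusted p under 0.05, where 6.21% of all tested genes had. In sign, 34 of 37 were fitted lower in RIP1i, against 49% of all tested genes, and the median log2 fold change was -0.29, against 0.0025 over all genes. The 30 members that shared the pattern had standard errors with a median of 0.52, where the median over all tested genes was 0.084. Accordingly only Fstl1 and Vcam1, 2 of 37 members, had a 95% interval bounded by 1.5-fold both ways, against 73% of all tested genes. The interval of Col1a1 reached from 0.291-fold to 1.77-fold.

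The sign of the group difference turned with single libraries. Without DMSO replicate 2, the count of members fitted lower dropped from 34 to 4 and the median log2 fold change was 0.24. Without RIP1i replicate 2, the count was 17 and the median 0.017. Leaving out both libraries numbered 2, an alternative chosen after seeing the data, gave 2 of 37 members fitted lower and a median of 0.55, with Col1a1 at 0.43, Col4a1 at 1.13 and Acta2 at 0.60. For 32 of 37 members the sign turned. These 2 are the highest and the lowest library of the list, so their removal had to move the difference upward.

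**Figure D4:**
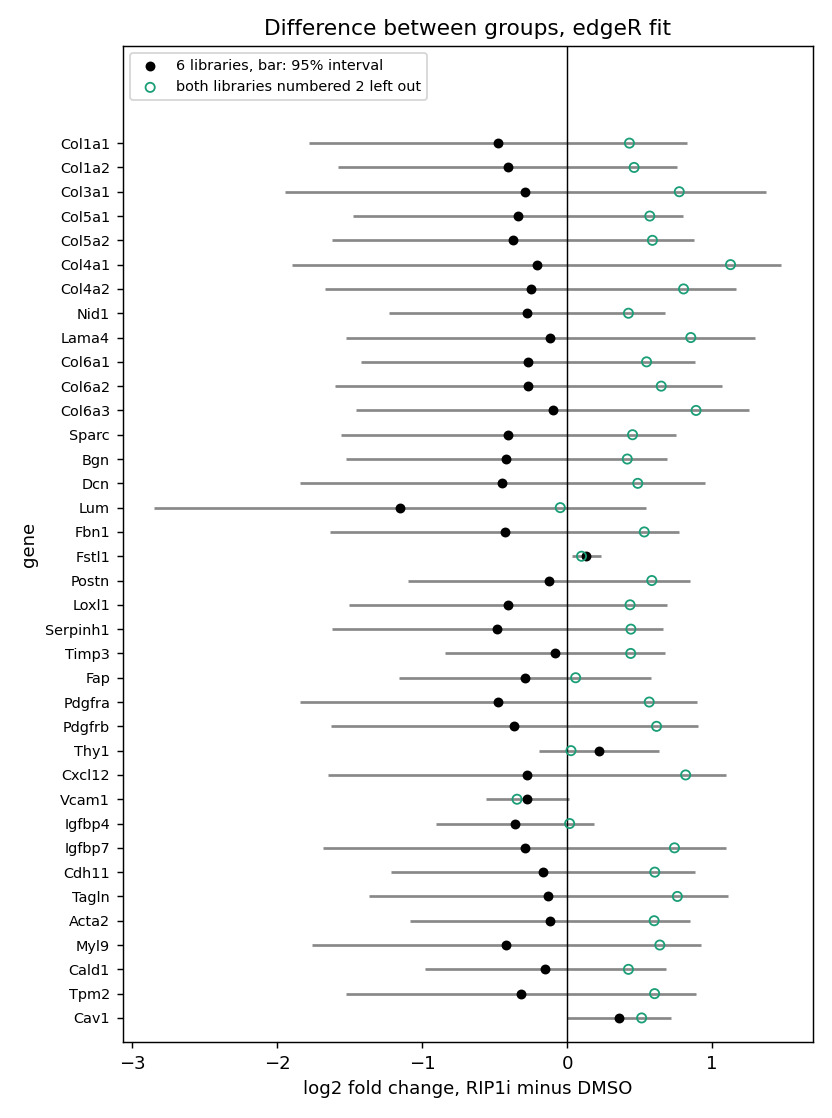
Log2 fold change of RIP1i over DMSO (horizontal axis) for the 37 tested stromal transcripts from the edgeR fit; black points with 95% intervals use 6 libraries and open green circles leave out both libraries numbered 2. Intervals cross 0 for 35 genes, and the circles lie above 0 for 35 genes.

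How closely the members varied together was described by Pearson's r of each gene's log2 CPM with the level of the other tested members over the 6 libraries. It is a likeness over 6 libraries that share the same scaling, and no p is given. For 30 of 37 members r was over 0.9, against 4.78% of all tested genes, with a median of 0.98 among the 30. Most tested genes varied little. Of 634 non-members averaging 1 CPM or more with an SD of log2 CPM of at least 0.3, 33.0% had r over 0.9. Pdgfrb, Myl9, Col5a2 and Sparc stood closest to the rest, at 0.999, 0.998, 0.998 and 0.997. Just inside the limit lay Cxcl12 at 0.91 and just outside Lum at 0.89, followed by Igfbp4 at 0.83 and Fap at 0.80. Cav1 at 0.36, Vcam1 at -0.21, Fstl1 at -0.29 and Thy1 at -0.78 stood apart. The median Spearman rho over the 37 was 0.94. Without the 2 libraries farthest from the middle, DMSO replicate 2 and RIP1i replicate 2, 28 members had r over 0.9 over the other 4 libraries. Among those 4, DMSO replicate 3 stood at a level of -0.70 and the rest between 0.15 and 0.36. This r therefore rests largely on 1 library. The share over all tested genes was not computed for it, so it does not show how far the likeness holds.

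Pairs of members told the same. The median r over the 666 pairs of tested members was 0.94, and 63.4% of pairs were over 0.9. Over the 71838091 pairs of tested genes averaging 1 CPM or more, the median was 0.0029 and 1.78% were over 0.9. After subtracting each group's mean, which leaves only differences among replicates, the median over member pairs was 0.95, against 0.0035 over all pairs. The co-variation was thus present among replicates within the groups.

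Members differed in how steeply they followed the shared level. The slope of log2 CPM on the level of the other members was 1.68 for Col4a1, 1.64 for Col3a1, 1.39 for Col4a2, 1.38 for Igfbp7 and 1.37 for Dcn and Pdgfra. It was 1.12 for Col1a2, 1.15 for Sparc and 1.15 for Tpm2. Genes with shallower slopes were Acta2 at 0.87, Cald1 at 0.75, Timp3 at 0.66 and Igfbp4 at 0.49. Slopes of -0.032 for Fstl1 and -0.060 for Vcam1 show that neither transcript rose with the shared level. Their highest and lowest libraries differed 1.13-fold and 1.39-fold, where those of Col1a2 differed 4.14-fold.

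Other genes of the matrix, from a list of 36 that excludes the members, largely shared the pattern. Of these, 28 were tested, 23 were fitted lower and 5 higher in RIP1i, 0 passed, and 18 of 28 had r over 0.9 with the stromal level. Col12a1, a collagen on the surface of fibrils, stood at 30.1, 83.3 and 13.4 CPM in DMSO and at 46.7, 8.67 and 41.2 CPM in RIP1i. Timp2, Emilin1, Ccdc80 and Vcan, the 4 most abundant of the list, did not reach that limit, with r of 0.29, 0.80, 0.66 and -0.61. Their slopes on the stromal level were shallow, at 0.02, 0.12, 0.20 and -0.16. Of the 8 not tested, Eln, the elastin gene, and Mfap4 had 0 or 1 count per library.

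Collagen-processing enzymes were mixed. Of 20 genes 19 were tested, 13 were fitted lower and 6 higher, 0 passed, and 11 had r over 0.9. P4hb, the protein disulphide isomerase that also serves as a prolyl hydroxylase subunit in all cells, stood at 269 to 281 FPKM in every library with a slope of 0.02. Colgalt1, Plod3 and Plod1, the next most abundant, had slopes of -0.02, 0.09 and 0.10. Their r was -0.40, 0.84 and 0.97, so Plod1 was among the 11 despite its shallow slope. In contrast Lox, lysyl oxidase, had 1470, 2252 and 658 counts in DMSO and 1431, 582 and 1859 counts in RIP1i, with a slope of 1.17. Fkbp10, a collagen chaperone, and Loxl2 were among the 10 genes outside the list most like the stromal level.

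Those 10 genes, taken by r among 634 non-members averaging 1 CPM or more with an SD of log2 CPM of at least 0.3, were Htra1, Msrb3, Sfrp1, Loxl2, Sod3, Col12a1, Dkk3, Fkbp10, Srpx2 and Ehd2, with r from 0.99 to 1.00. Htra1 encodes a secreted serine protease, Sfrp1 and Dkk3 encode secreted modulators of Wnt signalling and Sod3 encodes the extracellular superoxide dismutase. Sfrp1 stood at 1.69, 3.78 and 0.619 CPM in DMSO and at 2.33, 0.427 and 2.10 CPM in RIP1i. Of the 634 genes that varied this much, 209 had r over 0.9 and 52 had r under -0.9. At the other end lay Mir9-3hg, Cd209a, Scn3a, Il18r1 and Clec2l. Cd209a, a lectin of dendritic cells, stood at 6.77, 4.53 and 12.3 CPM in DMSO and at 6.57, 18.6 and 5.77 CPM in RIP1i, the reverse of the stromal order.

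The stromal level was close to the largest axis of variation among all other genes. In a principal component analysis of log2 CPM over 11952 tested non-members averaging 1 CPM or more, the first component held 61.9% of the variance, and its scores had an absolute r of 0.96 with the stromal level over the 6 libraries. For components 2 to 5 it lay between 0.033 and 0.17. The genes were not scaled to equal variance, so those that varied most weighed most. Among them were other matrix genes such as Col12a1 and the 209 genes with r over 0.9. The likeness to the first component is therefore not separate from theirs.

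Targets of TGF-beta and YAP in fibroblasts were mixed. Of 11 genes 10 were tested, 7 were fitted lower and 3 higher, and 0 passed. Of the 10, 5 had r over 0.9, among them Ctgf, Cyr61, Ltbp2 and Amotl2. Ctgf, a secreted matricellular protein gene, had 684, 846 and 382 counts in DMSO and 787, 248 and 596 counts in RIP1i. The 4 most abundant, Axl, Thbs1, Tgfbi and Skil, stood at 0.25, -0.80, -0.88 and 0.52, and Tgfbi had 21555 to 34875 counts.

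Markers of other cell types placed the pattern further. Of 12 smooth muscle and pericyte genes, the 4 tested, Mylk, Actg2, Cnn1 and Lmod1, all had r over 0.9, while Myh11, the smooth muscle myosin, had 0 to 6 counts, Des 0 to 3 and the pericyte gene Rgs5 0 to 2. The summed level of that list was 6.36 to 14.8 CPM in DMSO and 5.41 to 10.8 CPM in RIP1i. Of 10 osteoblast genes 4 were tested. The most abundant were Spp1, osteopontin, which macrophages also make, with 148095 to 225138 counts and r of 0.84, and Runx2 with 447 to 629 counts and r of -0.75. Bglap, Dmp1 and Sost had 0 counts in every library and Ibsp 0 or 1, whereas Alpl, alkaline phosphatase, had 32, 84 and 11 counts in DMSO and 43, 6 and 89 counts in RIP1i. Of 10 genes known from CXCL12-abundant reticular cells of marrow, 7 were tested, with a median r of 0.81, and 1, Foxc1, had r over 0.9. Nes, Kitl, Ebf3 and Il7 had r of 0.88, 0.84, 0.81 and 0.69. Lepr, the leptin receptor gene that marks those cells, ran the other way (r = -0.92), with 340, 286 and 496 counts in DMSO and 372, 555 and 329 counts in RIP1i. Adipoq had 0 or 1 count. Of 7 chondrocyte genes, Hapln1 had 0 counts and Acan 0 or 1, while Comp and Col2a1, the 2 tested, had r of 0.71 and -0.40. Of 12 endothelial genes 7 were tested and none had r over 0.9, with Cldn5 at 0 counts and Tek at 0 to 2. Vwf and Kdr, the most abundant of them, had 8649 to 10146 and 5298 to 6679 counts and r of -0.66 and -0.20. Pecam1 had r of -0.96. The rest of the tested genes, Egfl7, Esam, Tie1 and Cdh5, had positive r, at 0.67, 0.42, 0.42 and 0.35. The median r of the 7 was 0.35.

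Neutrophil and mast cell markers varied in the opposite sense. All 10 neutrophil genes were tested and all had negative r, from -0.92 for Cxcr2 to -0.69 for Ly6g, with a summed level of 230 to 631 CPM in DMSO and 226 to 664 CPM in RIP1i. S100a9, a calcium-binding protein of neutrophils, had 7727, 4034 and 11521 counts in DMSO and 7643, 11081 and 3645 counts in RIP1i. For S100a9, and for S100a8 at 66.0 CPM, RIP1i replicate 3 was the lowest library, where the stromal genes were near the middle. Ngp and Ltf, the next most abundant, were instead lowest in DMSO replicate 2, at 26.6 and 23.9 CPM. The 6 tested mast cell and basophil genes also had negative r, from -0.94 for Mcpt8 to -0.44 for Kit, and Mcpt4 had 0 counts. Their summed level was 168 to 207 CPM in both groups, most of it from Kit, at 157 to 186 CPM. Cpa3, the next most abundant, ranged more widely, from 3.09 to 11.4 CPM. Of 8 dendritic cell genes 7 were tested, with a median r of -0.67. H2-Ab1, Ccr7, Dpp4, Zbtb46 and Flt3 had r of -0.84, -0.84, -0.77, -0.67 and -0.55. Clec9a and Siglech had positive r, at 0.53 and 0.40. Of 15 macrophage genes 1 had r over 0.9, Cd14, the lipopolysaccharide co-receptor, with 9715, 10795 and 7016 counts in DMSO and 8414, 5035 and 10664 counts in RIP1i. Adgre1, which encodes F4/80, ran the other way at -0.92 with a slope of -0.25. The most abundant macrophage genes split. Lyz2 and Csf1r had r of 0.88 and 0.87, whereas Csf2rb and Itgax had r of -0.90 and -0.77. Slopes of Lyz2, Csf1r, Csf2rb and Itgax on the stromal level were shallow, at 0.18, 0.12, -0.18 and -0.11. The median r of the 15 macrophage genes was -0.30. The summed macrophage level was 57804 to 65051 CPM in DMSO and 51598 to 60255 CPM in RIP1i. Most of that sum came from Lyz2, at 46366 to 54100 CPM in DMSO and 39866 to 49299 CPM in RIP1i. The part of these cell types in the stromal pattern was not tested.

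**Figure D5:**
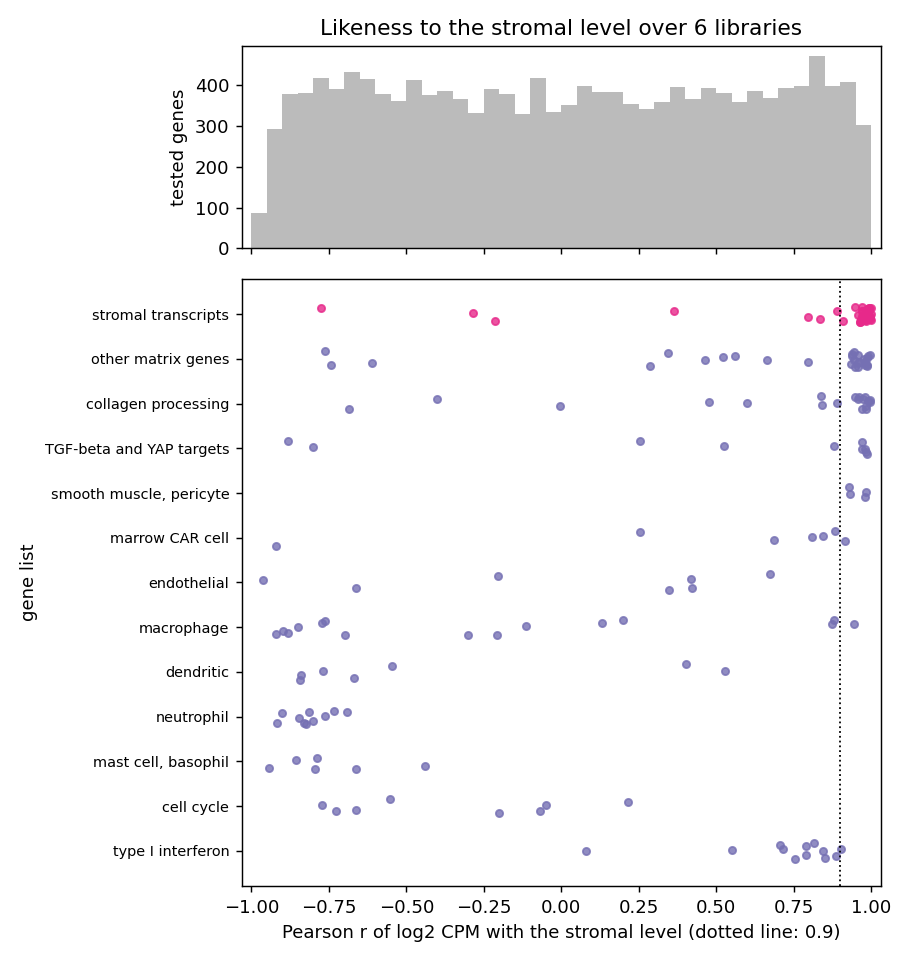
Pearson r of log2 CPM with the stromal level over 6 libraries (horizontal axis); top, number of all 14857 tested genes in each bin; bottom, one point per tested gene of each list, with points shifted vertically for legibility. Stromal transcripts, other matrix genes and collagen-processing genes crowd above 0.9, whereas all 10 neutrophil genes lie below 0.

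Type I interferon genes, fitted lower in RIP1i in 12 of 12, had r with the stromal level from 0.08 for Mx1 to 0.90 for Usp18. RIP1i replicate 2 was the lowest library in 11 of them, against 3760 of all 14857 tested genes. In 5 of the 12 the groups did not overlap, against 13.5% of all tested genes. For 4 the unadjusted edgeR p was under 0.05, against 6.21%. Cell cycle genes, fitted higher in 8 of 8, had r from -0.77 for Birc5 to 0.22 for Pcna. None of these 20 genes passed, and the part of the stromal difference in them was not tested. Of 8 T and NK cell genes 3 were tested, Cd4 with 50 to 105 counts, Klrb1c with 54 to 76 and Lck with 47 to 66, while Cd3e had 0 or 1. None of the 8 erythroid genes was tested, and Alas2 had 0 or 1 count. Of 8 B cell genes 2 were tested. Cd79b had 21 to 36 counts (r = 0.67), and Ebf1 had 31, 34 and 8 counts in DMSO and 26, 9 and 32 counts in RIP1i (r = 0.93), while Cd79a, Ms4a1 and Pax5 had 0 to 4 counts.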

How the data were processed

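RNA was measured by sequencing in 3 DMSO and 3 RIP1i libraries, built with an Illumina TruSeq RNA kit per the labels' protocols. The authors deposited raw read counts per gene and FPKM values for the same libraries. The tools named, per the submitters' processing notes, are DESeq2 1.14.0, Subread 1.4.6-p3 with featureCounts, STAR 2.5.3a, and CASAVA 1.8.4, and the build is mm10. What each did, which annotation was counted, and whether strand or multiply matching reads were considered is not stated, so reads of overlapping genes may be shared. The deposited FPKM values follow the counts under median-of-ratios scaling (library factors within 0.00023%), and hold no further reads. Gene coordinates are from GENCODE M21 on GRCm38, the same build, and promoters from RefSeq.

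Genes were kept with filterByExpr of edgeR 4.0.16 (minimum count 10, minimum total 15) in R 4.3.3, which left 14857 genes, scaled by TMM and tested with the quasi-likelihood F test, treatment as the only term, 2-sided, with Benjamini-Hochberg adjustment over all genes and a threshold of 0.05. SEs were taken from the F statistic. Log2 CPM used a prior count of 2. Alternatives were other scalings and filters, DESeq2 1.42.0, limma 3.58.1, a replicate block and leaving out libraries. The fit and the likeness measure were tested on simulated data.

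The members and lists were chosen with earlier results of these data known. All 38 members are named; of the other 19 lists (26 lists with the roles, 254 entries, all in the table), up to 4 genes each were to be named by highest mean CPM, plus the 10 most like and 5 least like the stromal level. Other genes named (Eln, Mfap4, Lox, Ctgf, Cyr61, Ltbp2, Amotl2, Ebf3, Il7, Egfl7, Esam, Tie1, Dpp4, Flt3, Siglech, and those given at or near 0 counts or for an extreme r) were chosen after their values were seen. Some genes of these lists are counted but not reported here by name. Total counts set the precision: shares of reads carry Wilson 95% intervals, which cover counting error only.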

Additional observations from a re-analysis of the deposited data

How the results depend on the processing

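Under 2 other scalings, no filter, a stricter filter, DESeq2, limma-voom, limma-trend on FPKM, another prior count, a threshold of 0.1 and the replicate block, between 28 and 35 members were fitted lower in RIP1i, of 31 to 38 tested. DESeq2 called 1 gene over all genes, no member, against 0 in edgeR. With the replicate block 34 members were fitted lower, the median log2 fold change was -0.23 and 0 genes were called, as without it. Same-numbered libraries were not taken as pairs, because the labels do not tell if they were paired. Their deviations from the group means had correlations of 0.0058, -0.53 and -0.48 for numbers 1 to 3. These values cannot show whether such libraries shared a culture or a mouse. Timp3 turned to 0.0037 with limma-voom. Leaving out each library in turn, members fitted lower ran from 4 to 34, the median log2 fold change from -0.66 to 0.24, the difference in stromal level from -0.65 to 0.17 and its range from 1.33 to 1.88. With both libraries numbered 2 left out (chosen after seeing the data), 2 members were fitted lower, the median was 0.55, the difference in level 0.56 and the range 1.05. Without DMSO replicate 3 and RIP1i replicate 2 (also chosen after seeing the data) the range was 0.75. Log2 fold changes that changed sign when single libraries were left out ran as follows: Acta2 -0.45 to 0.34, Bgn -0.77 to 0.11, Cald1 -0.43 to 0.17, Cdh11 -0.51 to 0.32, Col1a1 -0.90 to 0.10, Col1a2 -0.79 to 0.17, Col3a1 -1.02 to 0.35, Col4a1 -0.70 to 0.66, Col4a2 -0.67 to 0.37, Col5a1 -0.68 to 0.25, Col5a2 -0.75 to 0.24, Col6a1 -0.65 to 0.22, Col6a2 -0.75 to 0.32, Col6a3 -0.50 to 0.47, Cxcl12 -0.85 to 0.52, Dcn -0.88 to 0.12, Fap -0.51 to 0.0094, Fbn1 -0.76 to 0.18, Igfbp7 -0.70 to 0.36, Lama4 -0.54 to 0.47, Loxl1 -0.72 to 0.10, Myl9 -0.80 to 0.27, Nid1 -0.55 to 0.12, Pdgfra -0.87 to 0.19, Pdgfrb -0.74 to 0.27, Postn -0.39 to 0.25, Serpinh1 -0.83 to 0.13, Sparc -0.76 to 0.12, Tagln -0.54 to 0.37, Timp3 -0.38 to 0.26, Tpm2 -0.70 to 0.28. The sign turned only when DMSO replicate 2 or RIP1i replicate 2 was the library left out of these 6. With 3 libraries a group, this spread limits what can be detected.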
